A study of Mus musculus with 15 samples.

Results

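To describe how the response of macrophages to a bacterial stimulus moved from its first hours into later days, bone marrow-derived macrophages (BMDMs) kept with lipopolysaccharide (LPS) for 72 h were compared with BMDMs kept with LPS for 4 h, 3 samples against 3, which are 6 of the 15 RNA-seq samples of the study. The 6 samples were grouped by their labels, and they and the gene lists were chosen with earlier results of these data known. All samples were mouse BMDMs, cells grown out of bone marrow with M-CSF, the growth factor that drives and maintains macrophages. The control samples held M-CSF only, the LPS samples M-CSF and LPS for 4 hours or 3 days, and the remaining 6 samples M-CSF and RANKL, the cytokine that turns these cells into osteoclasts, for the same times. The labels give neither strain nor age, the methods of the study name wild-type mice, and no source states whether the 3 samples of a group were separate cultures or animals, so the p-values measure only the spread between these samples. No group held M-CSF alone for 72 h, so time in culture and time in LPS cannot be told apart. In bulk RNA, fewer cells of a type and less RNA per cell cannot be told apart either.

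LPS, a cell-wall molecule of Gram-negative bacteria, is recognised by TLR4 with its partners CD14 and MD-2. Through the adaptor MyD88 the receptor activates NF-κB and AP-1, which turn on genes of inflammatory cytokines and chemokines, and through the adaptor TRIF it activates IRF3, which turns on interferon-β. Interferon then acts back on the same cells and on their neighbours through its own receptor and turns on interferon-stimulated genes. Inhibitors made in the same response limit it, and macrophages that stay in LPS for days are known for a tolerant state in which part of the early genes are silent and others stay on.

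The 15 libraries held between 18306184 and 20330207 fragments over the genes analysed, and the 6 LPS libraries between 18830993 and 20330207. Expression was given as FPKM, fragment counts scaled to transcript length and library depth, for 20089 genes, and the 11743 of them whose mean over the 15 samples reached 0.1 FPKM were tested on log2(FPKM + 0.1) with limma. A gene was called where its fold was above 1.5 or under 0.66 and its unadjusted p under 0.05, the study's thresholds, and adjusted p-values are those of limma after Benjamini-Hochberg adjustment over all genes tested. Fold changes on this scale are understated for low genes. The third LPS 72 h sample stood apart: 663 of 9486 genes whose mean reached 1 FPKM lay more than 2-fold from both other samples of its group, against 80 to 222 in each of the other 14 samples. Defining macrophage genes were at high levels in all 15 samples. The summed FPKM of *Csf1r*, *Adgre1*, *Cd68*, *Itgam*, *Fcgr1* and *Spi1* was 2036, 2215 and 2143 at LPS 4 h and 2241, 2496 and 3496 at LPS 72 h.

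Gene expression at 72 h differed widely from that at 4 h, and most genes called at 4 h were not called in the same direction at 72 h. Of the 11743 genes, 5279 were higher (45.0%) and 1684 lower (14.3%) at 72 h than at 4 h, and 59.3% were called in all. Without the third LPS 72 h sample 5457 genes were higher and 1803 lower, and 5035 of the first and 1588 of the second were called in the same direction in the full data. All 3 values at 72 h lay above all 3 values at 4 h for 6059 genes (51.6%) and below them for 1927 genes (16.4%). The excess of genes higher at 72 h depended on scale. The median gene was 0.52 higher (log2) at 72 h than at 4 h and 0.52 lower at 4 h than in control, whereas 72 h and control differed by 0.08. Where the median gene of every sample was set to the same value (centred samples), which took 0.65 (log2) off every difference between the times, 2293 genes were higher and 3361 lower, so that 40.6% of calls were higher in place of 75.8%, and no gene called on both scales changed direction. With FPKM rescaled to equal sums, 77.3% of calls were higher. Counts centred in this way stand beside the uncentred ones below. The shares of 45.0% higher and 14.3% lower over all genes are the ones to set beside each list count between the times.

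To sort the early changes by what became of them, each gene was placed by its calls in LPS 4 h against control, LPS 72 h against control and LPS 72 h against LPS 4 h, which share samples. A resolved gene was called at 4 h and against 4 h in the opposite direction, and was not called at 72 h against control. A persisting gene was called in the same direction at both times, and a reversed gene in opposite directions. At 4 h 49.8% of genes were called against control, and at 72 h 31.0%. Of the 1028 genes that rose at 4 h (8.75% of those tested), 445 resolved (3.79%), 368 persisted (3.13%) and 103 reversed (0.877%), and 112 could not be placed. Among the persisting rises 161 were lower at 72 h than at 4 h, 179 were not called between the times and 28 were higher. Of the 4818 genes that fell at 4 h (41.0%), 2848 resolved (24.3%), 898 persisted (7.65%), 659 reversed (5.61%) and 413 could not be placed. A further 608 genes rose (5.18%) and 636 fell (5.42%) only at 72 h, against control and against LPS 4 h and with no call at 4 h. The falls depended on scale: with centred samples 1675 genes fell and 2049 rose at 4 h, and 1074 rises resolved, 465 persisted and 257 reversed, against 886, 415 and 181 falls. Without the third LPS 72 h sample 418 rises resolved, 385 persisted and 112 reversed, against 2557, 986 and 971 falls.

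**Figure D1:**
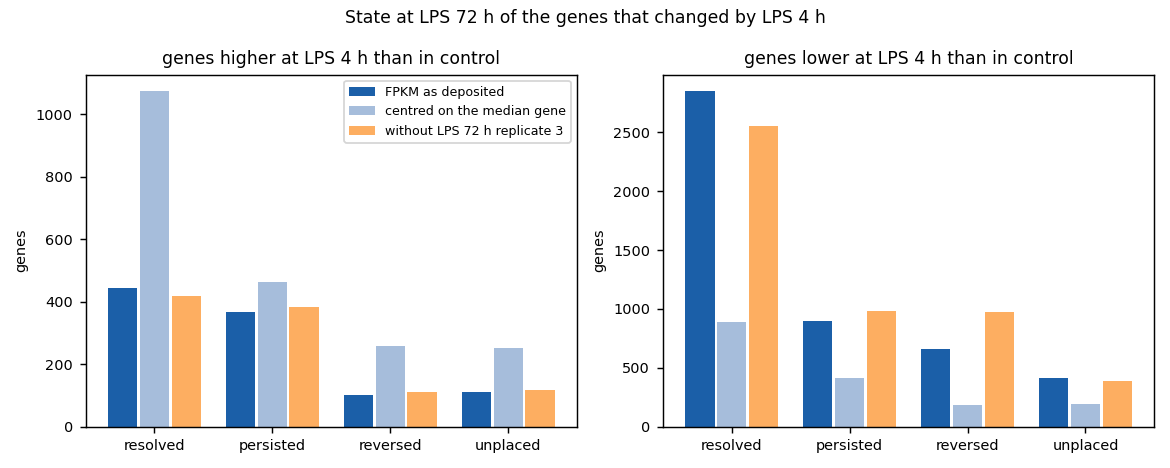
Number of genes (y axis) that rose or fell at LPS 4 h against control, by class at 72 h (resolved, persisted, reversed or not placed). Bars show values as deposited, with centred samples and without the third LPS 72 h sample. Resolved falls number 2848 as deposited and 886 when centred, whereas resolved rises number 445 and 1074.

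Inflammatory cytokine genes fell from their 4 h levels, but most stayed above control. Of 19 cytokine genes, 15 were lower and none higher at 72 h than at 4 h, with a median difference of -3.46 (log2) against 0.52 over all genes tested, and 18 were lower when centred. Of the 18 that had risen at 4 h, 15 persisted and 3 resolved, and at 72 h 15 of 19 were higher than in control (14.9% over all genes). *Tnf*, encoding the cytokine that starts much of the inflammatory cascade, stood at 23.5, 15.8 and 16.5 FPKM in control, 2495, 1698 and 1716 at 4 h and 54.98, 78.2 and 41.1 at 72 h, a difference of -5.11 between the times (log2, SE 0.24, adjusted p = 6.77e-09) and of 1.61 against control. *Il1b*, encoding interleukin-1β, stood at 7.11, 2.2 and 2.66 in control, 1293, 907 and 1108 at 4 h and 159, 118 and 50.3 at 72 h, -3.47 between the times and 4.78 against control. The 3 groups of values did not overlap for either gene. *Il6*, whose product drives the acute-phase response, stood at 0.734, 0.329 and 0.613, 262, 276 and 279 and 27.1, 24.2 and 4.92 in the same order, -4.19 between the times (SE 0.50, adjusted p = 7.61e-06), and the low value at 72 h was that of the third sample. *Csf3*, encoding the neutrophil growth factor G-CSF, stood at 0.034, 0.0171 and 0.073 in control, 19.4, 10.3 and 9.28 at 4 h and 10.9, 12.8 and 3.6 at 72 h. Its difference between the times was -0.62 and was not called, although it was called without the second LPS 72 h sample (-0.96) and with centred samples (-1.26), and against control *Csf3* was 5.85 higher.

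The 3 cytokine genes that resolved were *Il10*, *Il12b* and *Il27*. *Il10*, encoding the main anti-inflammatory cytokine of macrophages, stood at 5.7, 4.74 and 2.72 FPKM in control, 226, 184 and 169 at 4 h and 4.64, 3.9 and 4.22 at 72 h, -5.47 between the times (log2, SE 0.33, adjusted p = 4.01e-08), and its 72 h values lay within the control range. *Il27*, at chr7:126589009-126595035, encodes a subunit of interleukin-27 and stood at 6.75, 3.32 and 2.44, 697, 554 and 377 and 1.94, 2.09 and 2.79. Its difference between the times, -7.81 (SE 0.35, adjusted p = 5.84e-09), was the second largest fall by the rule for named genes, and 2 of its 3 values at 72 h lay below all control values. Against control it was -0.74 and not called, but it was called lower with centred samples (-0.82), without the third LPS 72 h (-0.89), the third LPS 4 h (-0.74) or the third control sample (-1.05), and with the replicate block or equal sums. *Il12b*, encoding the shared subunit of interleukins 12 and 23, stood at 0.539, 1.07 and 0.319, 101, 124 and 132 and 2.92, 3.26 and 0.1. The third of its values at 72 h lay below all control values and the other two above them, and without that sample *Il12b* was called higher than control (2.23). *Ebi3*, the other subunit of interleukin-27, persisted, with 163, 128 and 100.2 FPKM at 4 h and 64.1, 61.2 and 76.3 at 72 h against 36.5, 35.1 and 32.8 in control.

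Chemokine genes, which encode the signals that attract other leukocytes, divided between all 3 outcomes. Of 19 measured, 13 were lower and none higher at 72 h than at 4 h (median -2.05, log2), and 14 were lower when centred. Of the 16 that rose at 4 h, 6 resolved, 6 persisted and 4 reversed. *Ccl5*, an attractant of T cells, was among those that persisted, with 757, 359.6 and 133 FPKM in control, 3768, 3024 and 3219 at 4 h and 4067, 3705 and 1858 at 72 h. *Cxcl3*, a neutrophil attractant, persisted too, with 38.9, 7.004 and 4.17, 385, 300.0 and 508 and 472, 464 and 124. The ranges at the 2 times overlapped for both genes, the differences of -0.13 (SE 0.59) and -0.37 (SE 0.81) were not called, and the third sample held the lowest 72 h value in each. *Cxcl1*, a neutrophil attractant of the same cluster on chromosome 5, fell by far more, from 1082, 661 and 1077 to 57.5, 57.6 and 26.7, -4.36 between the times (SE 0.32, adjusted p = 1.58e-07), and remained 3.80 above control. *Ccl3* resolved, with 174, 234 and 132 in control, 5236, 3929 and 4990.1 at 4 h and 234, 334 and 159 at 72 h. *Ccl4*, an attractant of monocytes and T cells, reversed, with 145, 162 and 81.2, 3395, 2746 and 2727 and 55.3, 81.1 and 51.4, and its highest 72 h value lay just below its lowest control value. *Ccl17*, an attractant of type 2 helper T cells, had no fragment in any LPS 72 h sample against 134 over the LPS 4 h samples, at least 43.3-fold lower against a floor of 3 fragments over the group. Of the 4 reversed chemokine genes (*Ccl4*, *Ccl17*, *Ccl24* and *Cxcl10*), 2 (*Ccl4* and *Ccl24*) remained so without the first control sample.

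NF-κB subunit genes are themselves NF-κB targets. All 5 rose at 4 h, and all 5 were lower at 72 h than at 4 h (median -2.40, centred 5 lower, 4 lower without the third LPS 72 h sample). *Nfkb1* and *Rel* resolved, and *Nfkb2*, *Rela* and *Relb* persisted above control. *Rel* stood at 3.51, 4.08 and 5.67 FPKM in control, 25.9, 39.9 and 30.5 at 4 h and 6.23, 6.16 and 4.73 at 72 h. *Relb*, of the alternative NF-κB pathway, stood at 8.07, 4.82 and 3.69, 59.1, 46.7 and 39.4 and 12.2, 17.5 and 12.5, and its 3 groups did not overlap. *Rela* fell least, with 69.8, 64.3 and 57.5 at 4 h and 50.3, 45.6 and 28.8 at 72 h (-0.65, SE 0.17, adjusted p = 0.00331), a call lost without the third LPS 72 h (-0.41) or the first LPS 4 h sample (-0.59).

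To show the letters that NF-κB is known to bind in genes with these courses, windows around κB matches are printed for *Il6* and *Cxcl1*, which fell between the times, and for *Cxcl3*, which was not called. The windows are on the plus strand of GRCm38.p6 (RefSeq), 5′ to 3′, and capitals mark the κB matches: *Il6* at chr5:30013050-30013099, *Cxcl1* at chr5:90891154-90891204 and *Cxcl3* at chr5:90786008-90786058.
Il6: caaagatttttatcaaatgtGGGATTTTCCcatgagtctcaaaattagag
Cxcl1: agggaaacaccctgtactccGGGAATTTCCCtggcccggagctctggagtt
Cxcl3: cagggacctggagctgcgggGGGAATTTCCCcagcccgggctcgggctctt
*Cxcl1* and *Cxcl3* carry the same run of 11 capitals, in which 2 matches overlap. The κB motif was searched on both strands from 250 bases before to 50 bases after each RefSeq transcript start, and 8.46% of 32851 promoters held it. It was held by 4 of 16 promoters of 13 cytokine genes, 5 of 12 promoters of 12 chemokine genes and 4 of 5 promoters of 3 NF-κB subunit genes. The other genes of these lists had no promoter in the reference. By gene, 2 of the 3 subunit genes held the motif. By outcome of the rise, the share was 15.7% for resolved, 15.8% for persisting and 17.5% for reversed rises, against 10.5% of the promoters of genes tested. A match describes the letters of the window and is no evidence of binding.

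Genes of inhibitors that the LPS response itself makes were lower at 72 h too, and most persisted. Of 20, 15 were lower and 1 higher at 72 h than at 4 h (median -1.81, centred 16 lower and none higher), with 10 rises that persisted and 6 that resolved. *Socs3*, which restrains signalling by interleukin-6 and G-CSF, stood at 5.6, 2.72 and 2.38 FPKM in control, 503, 457 and 442 at 4 h and 69.6, 79.6 and 62.5 at 72 h, 4.36 above control at 72 h (log2, SE 0.31, adjusted p = 1.17e-06). *Socs1*, which restrains interferon signalling, resolved, with 27.3, 8.51 and 7.39, 302, 245 and 181 and 18.1, 17.9 and 9.08. All *Socs3* values at 72 h exceeded all control values, whereas those of *Socs1* lay within the control range. *Irak3*, encoding the inhibitory kinase IRAK-M known from LPS tolerance, stood at 44.3, 40.97 and 57.2 at 4 h and 45.8, 52.3 and 75.2 at 72 h against 9.32, 9.41 and 10.9 in control. Its difference between the times, 0.27 (SE 0.17), was not called, and the ranges at the times overlapped. With centred samples and without the third LPS 72 h sample *Irak3* was called lower at 72 h (-0.65). *Nfkbia*, encoding IκBα, stood at 837, 675 and 635 at 4 h and 178, 182 and 125 at 72 h, and *Tnfaip3*, encoding the ubiquitin-editing enzyme A20, at 311, 369 and 323 and 23.98, 34.01 and 18.1. *Nfkbia* persisted (1.90 against control), and *Tnfaip3* resolved (0.38), or was called above control without the third LPS 72 h sample (0.60). *Dusp2*, a phosphatase of MAP kinases, stood at 170.0, 123 and 61.9 and 1.74, 2.43 and 1.83 against 3.11, 2.96 and 2.9 in control, one of the 5 largest resolved rises (-5.72, SE 0.27, adjusted p = 7.54e-09), and was called below control with centred samples.

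Among 24 immediate-early factor genes, which answer a stimulus without new protein, 13 were lower and 2 higher at 72 h than at 4 h (centred 19 and 2). The 2 that were higher encode the AP-1 partners *Fos* and *Jun*. *Fos* stood at 27.3, 33.6 and 36.04 FPKM in control, 8.83, 12.2 and 14.1 at 4 h and 79.4, 60.7 and 93.7 at 72 h, so that it fell below control and then rose above it without overlap of the groups (2.73 between the times, SE 0.28, adjusted p = 1.85e-06). *Jun* stood at 50.7, 53.8 and 67.3, 22.01, 16.4 and 20.6 and 56.1, 54.4 and 46.4 and resolved. *Egr2* fell at both times, with 2.16, 1.86 and 4.15, 1.28, 0.679 and 0.811 and 0.104, 0.128 and 0.116, and *Myc* fell at 72 h only, with 21.5, 22.95 and 17.3, 17.96, 13.1 and 11.7 and 3.19, 6.54 and 4.43.

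**Figure D2:**
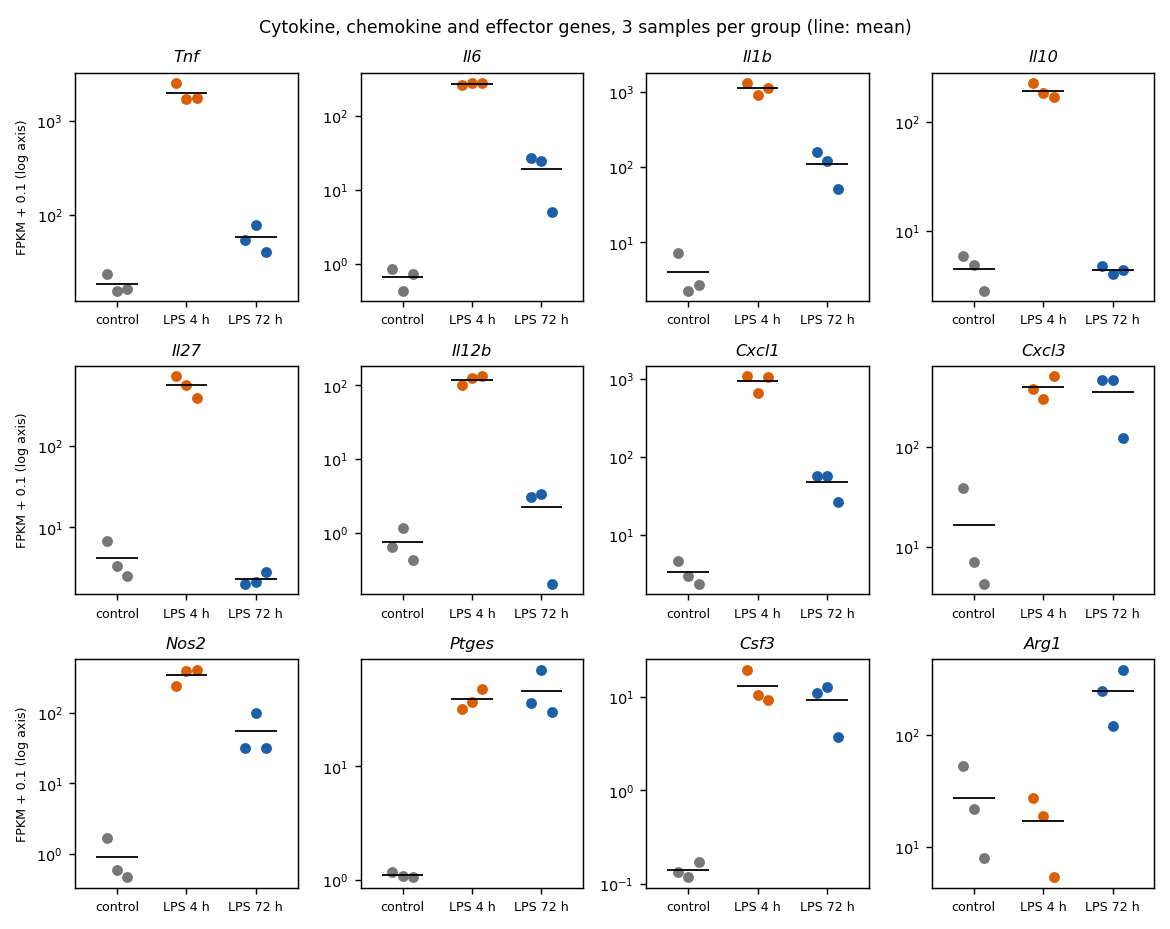
FPKM on a log axis (with 0.1 added) of inflammatory genes in each control, LPS 4 h and LPS 72 h sample, with the mean of each group as a line. *Tnf* and *Il6* lie between control and 4 h at 72 h, *Il10* lies back among the control values, and *Cxcl3* overlaps its 4 h values.

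The interferon-stimulated genes went beyond resolution: most were below their control level at 72 h. Of 27 measured, 24 were lower and none higher at 72 h than at 4 h (median -1.61, log2, and 27 lower when centred), and for 26 of 27 all 3 values lay below all 3 values at 4 h (16.4% over all genes). Against control 18 of 27 were lower at 72 h (16.1% over all genes), of which 15 were also lower without the first control sample and 17 without the third LPS 72 h sample. Of the 12 that rose at 4 h, 4 resolved and 8 reversed, and 10 more fell at 72 h only. The first control sample was the highest of its group in 25 of the 27, by a wide margin in some. *Isg15*, encoding a ubiquitin-like modifier, stood at 1044, 488 and 213 FPKM in control, 2565, 1728 and 1766 at 4 h and 76.2, 169 and 108 at 72 h, -4.16 between the times (SE 0.61, adjusted p = 4.61e-05) and -2.10 against control (adjusted p = 0.0169). *Ifit2*, an inhibitor of viral translation, stood at 360.0, 180.0 and 59.8, 677, 865 and 886 and 12.2, 34.9 and 14.4, -5.45 between the times and -3.10 against control. For both genes the 3 groups did not overlap. *Ifit1* stood at 189.9, 85.3 and 52.1, 991, 1111 and 1063 and 23.96, 64.1 and 32.6, and as the difference against control, -1.36 (SE 0.65), was not called, it counts as resolved, but it was called lower without the second LPS 72 h sample (-1.75) or the third control sample (-1.79), with the replicate block or equal sums, and with only the control and LPS groups fitted. *Irf7*, which amplifies interferon production, stood at 1379.6, 1068 and 617, 1295, 1033 and 869.9 and 684, 773 and 645, and *Irf9* at 36.4, 37.4 and 35.2, 36.9, 37.2 and 36.4 and 36.03, 33.6 and 24.2, and neither was called between the times. Both were called lower when centred, and *Irf7* also without the third LPS 4 h sample (-0.73).

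*Ifnb1*, the gene of interferon-β at chr4:88522025-88522794, was the source gene of this list and nearly absent at 72 h. It stood at 3.87, 1.89 and 0.649 FPKM in control, 50.5, 21.2 and 12.5 at 4 h and 0.061, 0 and 0 at 72 h. These are 1352 fragments over the LPS 4 h samples and 1 over the LPS 72 h samples, a ratio of 1312 after scaling to depth with a 95% interval of 235 to 51854 that covers counting error only. The fitted difference of -7.67 (SE 0.73, adjusted p = 1.09e-06) depends on the 0.1 FPKM added. *Cxcl10*, an interferon-induced attractant of T cells at chr5:92346638-92348889, had the largest fall of all genes named by the rule. It stood at 114, 24.1 and 11.8 in control, 5227, 4885 and 4559 at 4 h and 4.56, 17.4 and 6.5 at 72 h, -9.23 between the times (SE 0.82, adjusted p = 6.40e-07), and its 72 h values overlapped the control range. Its call below control (-1.98) was lost without the first control sample (-1.06), without the first (-1.57) or the third (-1.82) LPS 72 h sample, with adjusted p and with voom. Other reversed rises were *Cmpk2*, a mitochondrial nucleotide kinase gene, with 209, 78.6 and 33.8, 847, 1092 and 1333 and 7.28, 22.5 and 10.1, and *Lipg*, an endothelial-type lipase gene, with 4.45, 2.92 and 1.88, 32.7, 49.1 and 89.5 and 0.0685, 0.118 and 1.06. Both were lower than control in every 72 h sample. *Ifit1bl1*, with 43.4, 9.99 and 3.14, 108, 86.8 and 74.7 and 2.3, 2.94 and 1.02, overlapped *Ifit1* in position, and its call below control (-2.48) was lost without the first control sample (-1.51) or the third LPS 72 h sample (-2.06).

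The genes of immunity GTPases, which attack membranes around intracellular microbes and answer to interferon, rose and returned as a group. All 10 rose at 4 h (8.75% over all genes) and all 10 were lower at 72 h than at 4 h, also when centred (median -1.92), and 9 resolved. *Gbp5* stood at 31.5, 10.1 and 4.24 FPKM in control, 525, 634 and 582 at 4 h and 9.61, 30.1 and 7.26 at 72 h, -5.49 between the times (SE 0.71, adjusted p = 1.53e-05). *Iigp1* stood at 52.9, 31.5 and 9.3, 129.5, 186 and 177 and 9.68, 22.01 and 13.3. The 72 h values of both lay inside the wide control range. *Irgm1* was the 1 gene called below control, with 179, 129.8 and 86.5, 249, 261 and 254 and 60.4, 95.1 and 58.6 (-0.86), a call lost without the first (-0.61) or second (-0.84) control sample or the first (-0.76) or the third (-0.74) LPS 72 h sample and with adjusted p.

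Windows around interferon-stimulated response element (ISRE) matches are printed for *Cxcl10*, *Ifit1*, *Isg15* and *Gbp5*, and around the κB match of *Ifnb1*. A window was printed only where a promoter held a match, so the windows do not show how common it is. The ISRE letters searched on both strands were GAAA, any 2 letters and GAAA again, and a match on the reverse strand reads TTTC, 2 letters and TTTC. The windows come from GRCm38.p6 (RefSeq), each 5′ to 3′ on the strand of its gene, with the ISRE and κB matches in capitals: *Cxcl10* at chr5:92348963-92349122 on the minus strand, *Ifit1* at chr19:34640765-34640833 on the plus strand, *Isg15* at chr4:156200855-156200916 on the minus strand, *Gbp5* at chr3:142496749-142496798 on the plus strand and *Ifnb1* at chr4:88522881-88522930 on the minus strand.
Cxcl10: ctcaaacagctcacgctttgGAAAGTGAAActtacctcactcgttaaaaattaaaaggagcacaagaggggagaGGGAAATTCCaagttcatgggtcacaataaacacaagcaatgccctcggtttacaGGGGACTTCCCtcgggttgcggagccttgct
Ifit1: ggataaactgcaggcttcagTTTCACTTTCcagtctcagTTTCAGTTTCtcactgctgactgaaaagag
Isg15: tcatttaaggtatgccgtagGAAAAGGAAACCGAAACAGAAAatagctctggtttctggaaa
Gbp5: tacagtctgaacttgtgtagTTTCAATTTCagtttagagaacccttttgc
Ifnb1: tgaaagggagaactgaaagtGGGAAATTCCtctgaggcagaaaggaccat
In *Cxcl10* the first run of capitals is the ISRE, whose first base lies 213 bases before the transcript start, and the other runs are κB matches, of which the last holds 2 that overlap. *Ifit1* holds 2 ISRE matches on the reverse strand, and *Isg15* 3 that overlap each other. No ISRE match shares letters with a κB match in these windows. Over all promoters 3.44% held an ISRE match, and over those of genes tested 3.38%. The share was 13 of 27 promoters of 22 interferon-stimulated genes and 7 of 8 promoters of 7 GTPase genes, the list members with a promoter in the reference. By gene, 12 of the 22 and all 7 held a match. It was 20.4% for reversed rises, 7.95% for resolved and 4.89% for persisting rises, and 8.2% for genes that fell only at 72 h.

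**Figure D3:**
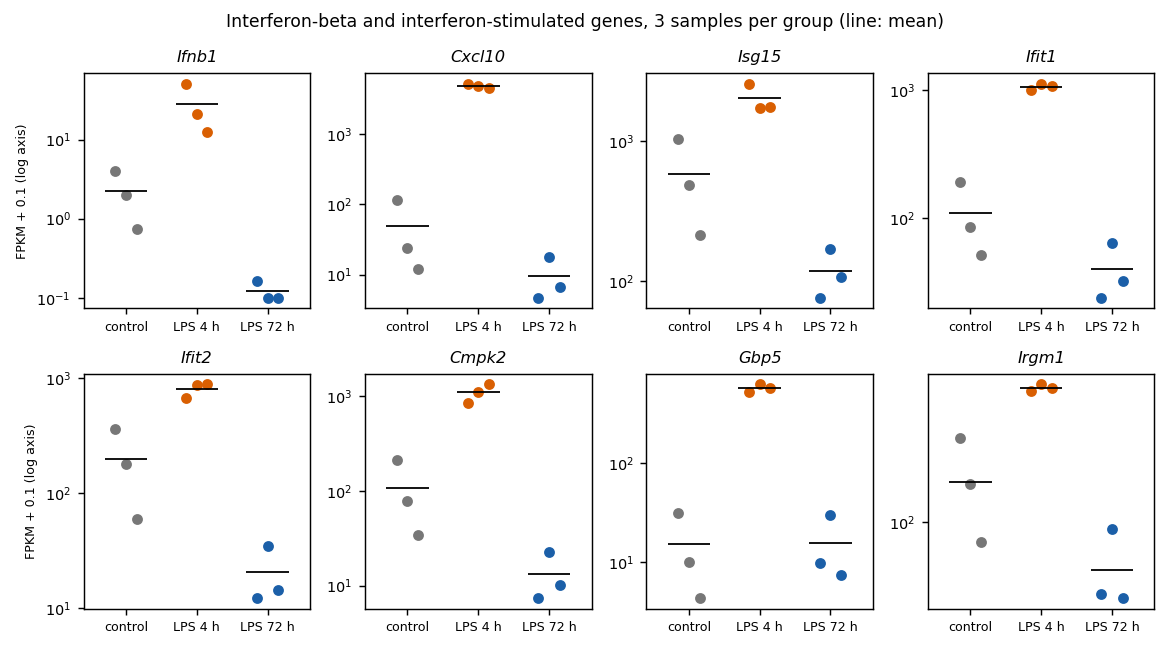
FPKM on a log axis (with 0.1 added) of interferon-stimulated and GTPase genes in each control, LPS 4 h and LPS 72 h sample, with the mean of each group as a line. The first control sample is the highest of its group, and *Ifit2* and *Isg15* lie below all control values at 72 h.

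Genes of antigen presentation on MHC class II parted within the list. Of 9, 4 were lower and 1 higher at 72 h than at 4 h (centred 4 and 0), against 14.3% lower and 45.0% higher over all genes. *H2-Aa*, encoding a class II chain, stood at 113, 57.8 and 16.3 FPKM in control, 103, 59.9 and 13.5 at 4 h and 6.9, 6.13 and 4.68 at 72 h, where every value lay below every 4 h and control value (-2.88, SE 0.93, adjusted p = 0.0137). *H2-Ab1*, encoding the partner chain, stood at 109.8, 57.4 and 17.6, 113, 67.3 and 19.4 and 28.8, 28.6 and 30.1 and was not called (-0.86, SE 0.81). The 4 h values of both spread widely, in the same order of samples as the control values. *Cd74*, the invariant chain, stood at 340.0, 182 and 68.2 at 4 h and 45.5, 34.5 and 27.7 at 72 h, and its call was lost without the first LPS 4 h sample (-1.66). *Ciita*, the activator of class II genes, was the fourth to fall (-1.48), from 0.266, 0.31 and 0.107, at levels near the 0.1 FPKM added. B cell and dendritic cell markers, which come from cells that carry class II, were lower at 72 h as well, with summed FPKM of 12.3, 10.4 and 3.06 against 1.07, 0.994 and 2.68 and of 26.04, 15.8 and 3.76 against 1.8, 1.96 and 0.607, and their part in the class II values was not tested. For MHC class I, 6 of 12 genes were lower and 1 higher (centred 9 and 0), and the chains *B2m* and *H2-K1* were not called.

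Of 9 genes of T cell costimulation, 4 were lower and none higher at 72 h than at 4 h (centred 8 lower). Over all genes 14.3% were lower and 45.0% higher. *Cd40*, the receptor for help from T cells, stood at 17.1, 11.9 and 5.71 FPKM in control, 393, 450.3 and 402 at 4 h and 30.9, 34.2 and 12.9 at 72 h and persisted (1.18 against control), although this call was lost without the first (0.99) or second (0.92) LPS 72 h or the third control sample (0.74) and with adjusted p. *Cd274*, encoding the inhibitory ligand PD-L1, stood at 110.5, 45.2 and 42.2, 447, 511 and 587 and 383, 443 and 140.2 and persisted with no call between the times (-0.83, SE 0.42), the third 72 h value being far below the other two. It was called lower without the first (-1.04) or second (-1.14) LPS 72 h sample, without the first control sample (-0.83), with the replicate block, with only the LPS and RANKL groups fitted and when centred (-1.48). *Cd83* counts as reversed, with 6.18, 5.65 and 5.16, 70.8, 42.5 and 23.7 and 3.88, 4.31 and 1.24, and *Icosl* reversed, with 10.4, 7.32 and 11.3, 20.8, 17.9 and 20.8 and 3.35, 3.44 and 4.87. Every 72 h value of these last genes lay below every control value, but the call of *Cd83* below control (-1.004) was lost without the third LPS 72 h sample (-0.46), without any 1 of the control samples, with adjusted p, with voom and with a pseudocount of 1 FPKM.

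Of the enzymes that use arginine, *Nos2* and *Arg1* moved in opposite directions between the times. *Nos2*, encoding the inducible nitric oxide synthase, stood at 1.58, 0.49 and 0.367 FPKM in control, 242, 393 and 407 at 4 h and 31.9, 99.2 and 31.9 at 72 h, -2.86 between the times (SE 0.51, adjusted p = 0.000236) and 5.92 above control. *Arg1*, at chr10:24915207-24927470, encodes arginase 1, which competes with nitric oxide synthase for arginine, and it stood at 52.6, 21.5 and 7.85, 26.9, 18.6 and 5.2 and 246, 119.9 and 382. Its rise of 4.01 between the times (SE 0.75, adjusted p = 0.00034) was among the 10 largest named by the rule, and all 72 h values lay above all control and 4 h values although they differed among themselves. *Acod1*, which makes itaconate, stood at 67.9, 17.6 and 12.01, 1856, 2080.1 and 2178 and 93.2, 173 and 112, and *Ptgs2*, which makes the precursor of prostaglandins, at 3.71, 1.97 and 1.66, 308, 328 and 462 and 48.7, 62.5 and 25.9. Both persisted below their 4 h level. *Ptges*, the next enzyme towards prostaglandin E2, overlapped between the times, with 31.98, 36.7 and 47.99 at 4 h and 35.99, 70.9 and 30.1 at 72 h against 1.06, 0.965 and 0.946 in control (0.15 between the times, SE 0.28, not called). Over this list of 12 genes, 5 were lower and 1, *Arg1*, higher at 72 h than at 4 h (centred 7 and 1), and 7 early rises persisted. *Saa3*, an acute-phase gene, was one of the 28 early rises that went higher still, with 141, 106 and 46.03, 2399, 2693 and 2836 and 6740.3, 8836 and 13573 and no overlap between the groups (1.82, SE 0.39, adjusted p = 0.000982).

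The receptors and adaptors of LPS moved both ways. Of 22 genes of LPS recognition and signalling, 6 were higher and 8 lower at 72 h than at 4 h, and 2 and 11 when centred. Over all genes 45.0% were higher and 14.3% lower. *Tlr4*, the receptor itself, stood at 18.04, 22.9 and 19.8 FPKM in control, 8.26, 8.28 and 10.2 at 4 h and 15.96, 14.9 and 14.5 at 72 h. It counts as resolved, with no overlap between the times (0.76, SE 0.14, adjusted p = 0.000355), but this call was lost when centred (0.12). All its 72 h values still lay below all control values. *Cd14*, which hands LPS to the receptor, stood at 33.4, 40.5 and 43.7, 978, 585 and 689 and 289, 247 and 340.4, lower than at 4 h and 2.89 above control. *Tlr2*, the receptor of bacterial lipoproteins, stood at 20.5, 13.9 and 14.4, 402, 371 and 369 and 34.7, 56.7 and 58.2 and persisted likewise. *Tlr13*, a receptor of bacterial ribosomal RNA, fell at 4 h and resolved, with 119.9, 144 and 151, 33.4, 37.1 and 43.3 and 134, 109 and 105. *Ly96*, encoding MD-2, stood at 36.8, 28.9 and 28.3 and 39.9, 40.01 and 22.5 and was not called.

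Genes that mark macrophages as such moved both ways between the times, and their counts depended on scale. Of 24 macrophage identity genes, 6 were higher and 2 lower at 72 h than at 4 h (45.0% and 14.3% over all genes), but 1 and 13 when centred, and 5 and 7 without the third LPS 72 h sample. Against control 2 were higher and 10 lower at 72 h (14.9% and 16.1% over all genes), and 1 and 12 when centred. Of the 7 that fell at 4 h, 5 persisted. *Csf1r*, the M-CSF receptor, stood at 189.8, 217 and 188 FPKM in control, 113, 152 and 138 at 4 h and 209.9, 235 and 261 at 72 h, higher than at 4 h (0.81) unless centred (0.16). *Mrc1*, the mannose receptor of tissue macrophages, stood at 46.8, 114 and 86.5 at 4 h and 22.5, 28.3 and 125 at 72 h, and *Cx3cr1* at 0.351, 0.546 and 0.603 and 0.338, 0.647 and 0.494 against 1.71, 2.4 and 2.05 in control, a fall that persisted. The third 72 h value of *Mrc1* lay above the other two and within the control range, and without it *Mrc1* was called lower than at 4 h (-1.61, against -0.84 with it), as it was when centred (-1.49).

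Genes of glycolysis moved in shares near those over all genes. Of 18, 10 were higher and 3 lower at 72 h than at 4 h (median 0.83, log2), and 5 and 5 when centred, against 45.0% and 14.3% over all genes. *Tpi1*, encoding triosephosphate isomerase, stood at 263, 185 and 185 FPKM in control, 165, 143 and 107 at 4 h and 608, 589 and 603 at 72 h (2.14, SE 0.19, adjusted p = 7.69e-07). *Slc16a3*, the lactate exporter, stood at 26.8, 7.93 and 16.2, 14.9, 7.46 and 7.18 and 36.5, 39.2 and 59.8, and *Pfkl*, a phosphofructokinase, at 27.7, 14.8 and 15.3, 11.2, 9.39 and 8.09 and 34.1, 40.5 and 40.7. These genes were above control in every 72 h sample and stayed higher than at 4 h when centred (1.49, 1.59 and 1.35). *Pfkfb3*, which makes the activator of phosphofructokinase, went the other way, from 118, 149.8 and 161 to 44.2, 59.8 and 32.4, and *Hk2*, the inducible hexokinase, from 48.9, 57.3 and 41.4 to 22.3, 30.3 and 25.4. Of 14 citrate cycle genes 3 were higher and none lower (centred 0 and 2).

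Genes of cholesterol and lipid handling moved both ways. *Abca1*, the cholesterol exporter, rose only at 72 h, with 17.7, 22.9 and 20.8 FPKM in control, 19.1, 27.7 and 27.95 at 4 h and 100.3, 117 and 103 at 72 h (2.11, SE 0.24, adjusted p = 4.35e-06). *Lpl*, encoding lipoprotein lipase, stood at 403, 933 and 1073, 253, 559 and 665 and 139, 123 and 57.8 and *Apoe* at 9520.3, 4396 and 3658, 8213, 3799 and 3546 and 2247, 1489 and 1824. Both were called lower than control at 72 h and not at 4 h, and every 72 h value lay below every control and every 4 h value. At 4 h *Lpl* differed from control by -0.70, and each 4 h value lay below that of the control sample of the same number. Over the lists, 5 of 19 cholesterol synthesis genes were higher and 5 lower (centred 3 and 10), 4 of 13 lipid handling genes were higher and 6 lower (centred 2 and 7), and 7 of 20 lysosome genes were higher and none lower (centred 2 and 3), against 45.0% higher and 14.3% lower over all genes.

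Among 16 genes of iron, metal and antioxidant handling, 5 were higher and 5 lower at 72 h than at 4 h (centred 3 and 8). Over all genes 45.0% were higher and 14.3% lower. *Hmox1*, which degrades heme, stood at 938, 1244 and 1267 FPKM in control, 459, 498 and 1009 at 4 h and 2199, 2265 and 1773 at 72 h (1.75, SE 0.27, adjusted p = 6.84e-05). *Slc40a1*, the iron exporter, stood at 162, 258 and 203, 16.3, 29.5 and 25.3 and 144, 83.5 and 108, higher than at 4 h and still -0.90 against control. *Sod2*, the mitochondrial superoxide dismutase, persisted, with 35.2, 26.9 and 15.96, 310.2, 248 and 292 and 140.1, 190.3 and 162. For each of these genes the 72 h values lay wholly on one side of the 4 h values. Of 13 genes of the unfolded protein and integrated stress response, 4 were higher and 3 lower (centred 4 and 5), against 45.0% and 14.3% over all genes. *Ddit3*, encoding CHOP, stood at 15.6, 12.5 and 16.1 at 4 h and 60.2, 85.95 and 28.6 at 72 h, and *Sesn2* at 2.2, 2.47 and 4.24 and 15.8, 15.8 and 20.8.

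**Figure D4:**
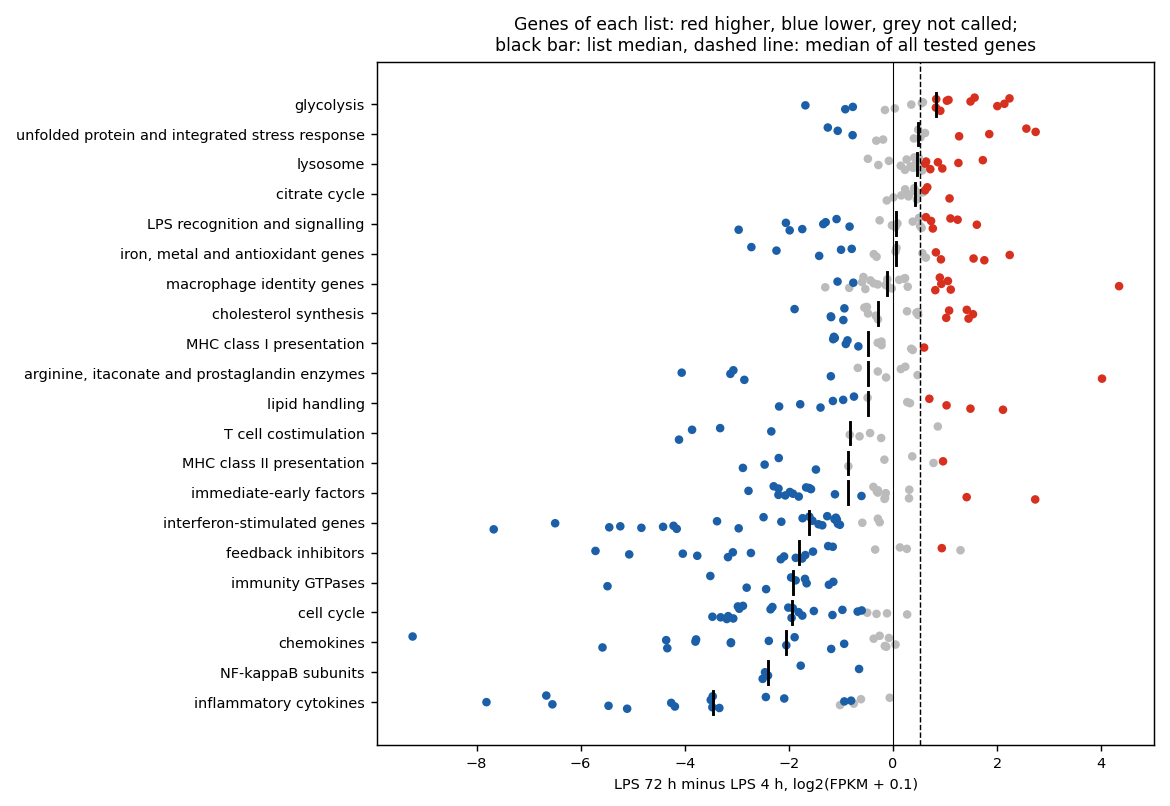
Log2 difference of LPS 72 h against LPS 4 h for each gene of the fixed lists (points, x axis), with the list median as a bar, a line at 0 and a line at the median gene of all 11743 tested, 0.52. The interferon-stimulated, cytokine and cell cycle lists lie mostly left of 0 and the glycolysis and lysosome lists mostly right of it.

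Resolved falls were led by *Mrgpre*, *Lpar5*, *Depdc7*, *Fam83f* and *Tmem86a*. *Lpar5*, a receptor of lysophosphatidic acid, stood at 2.71, 3.95 and 3.83 FPKM in control, 0.073, 0.096 and 0.0882 at 4 h and 2.5, 2.21 and 2.28 at 72 h (3.71, SE 0.19, adjusted p = 1.76e-08). *Tmem86a* stood at 153, 129 and 62.9, 11.5, 9.99 and 4.34 and 96.2, 78.4 and 77.6. Both genes had 4 h values below every control and every 72 h value. *Mrgpre*, *Depdc7* and *Fam83f* rose by 3.77, 3.63 and 3.63 between the times, and without the third LPS 72 h sample all 3 were called above control as well. The 5 reversed falls named by the rule included *Arl4d*, a small GTPase gene, with 1.25, 1.02 and 0.543, 0.176, 0.0337 and 0.171 and 7.2, 4.71 and 2.32, and *Syt11*, a regulator of vesicle traffic, with 0.789, 0.945 and 1.59, 0.321, 0.251 and 0.319 and 4.02, 3.14 and 2.94. In each the 3 groups did not overlap. The others were *Phospho1*, *Polg2* and *Ankrd37*, with rises of 3.87, 3.20 and 3.14 between the times. *Gzmm*, a granzyme gene, rose by 3.91 (SE 0.32, adjusted p = 3.39e-07), from 0.0812, 0.0259 and 0.0523 at 4 h to 2.19, 2.34 and 2.002 at 72 h. Persisting falls were led by *Ccnd1*, encoding cyclin D1, with 62.2, 84.2 and 59.3, 8.34, 12.1 and 5.97 and 3.49, 12.99 and 23.3, *Lrrc14b*, *Pi16*, *Cxcr2* and *Gpr160*. Between the times none of these last 5 was called. *Ccnd1* was called higher without the first LPS 72 h sample (1.03), and *Gpr160* lower without the third (-0.65) or when centred (-0.81). With centred samples and without the third LPS 72 h sample, *Pi16* (-1.44), *Cxcr2* (-2.39) and *Gpr160* (-1.36) were called lower.

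Resolved rises outside the lists were led by *Lhx2* and *Ch25h*. *Lhx2*, a LIM homeobox factor gene, stood at 0.326, 0.0919 and 0.042 FPKM in control, 5.1, 8.06 and 7.39 at 4 h and 0.0263, 0.0408 and 0.0421 at 72 h (-5.65, SE 0.39, adjusted p = 1.001e-07). *Ch25h*, which makes the antiviral oxysterol 25-hydroxycholesterol, stood at 2.79, 1.77 and 0.628, 61.2, 92.8 and 95.5 and 0.555, 3.62 and 1.85, and its 72 h values overlapped the control range. *2010005H15Rik* rose at both times, with 0.677, 0.341 and 0.363, 2.76, 0.542 and 1.3 and 16.04, 30.8 and 15.8. *Fam71f2* rose at 72 h only, with 0.468, 0.18 and 0.222, 0.303, 0.11 and 0.195 and 10.8, 7.39 and 1.21.

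Genes of cell division were lower at 72 h than at 4 h and than in control. Of 24 cell cycle genes, 20 were lower and none higher at 72 h than at 4 h (median -1.94, log2, and 23 lower when centred), and all 24 were lower than control (16.1% over all genes). At 4 h, 15 were already lower than control (41.0% over all genes), but 3 when centred. *Mki67*, the proliferation marker, stood at 14.6, 17.1 and 31.1 FPKM in control, 21.8, 24.3 and 20.6 at 4 h and 1.27, 2.16 and 4.58 at 72 h (-3.19, SE 0.36, adjusted p = 4.85e-06). *Ccnb1*, encoding the cyclin that starts mitosis, stood at 13.5, 17.98 and 25.8, 10.4, 11.5 and 10.6 and 0.243, 0.587 and 4 (-3.47, SE 0.61, adjusted p = 0.000211). In both the third 72 h sample was the highest of its group and still below every 4 h and control value. *Mcm2*, encoding a subunit of the replication helicase, fell at 4 h and stood at 16.7, 23.9 and 24.5, 9.55, 11.2 and 6.44 and 7.69, 6.08 and 7.58 and was not called between the times unless centred (-0.97). *Pcna*, the replication clamp, stood at 234, 328 and 351, 185, 199 and 198 and 146, 138 and 103, without overlap between the groups, but its call between the times (-0.60) was lost without the third LPS 72 h sample (-0.45) or the second (-0.58) or the third (-0.59) LPS 4 h sample, with equal sums, with voom and with a pseudocount of 1 FPKM.

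Because CCAAT boxes are a known feature of promoters of mitotic genes, the windows around them are printed for *Ccnb1*, *Ccnb2* and *Cdc20*, which fell together at 72 h. They are from GRCm38.p6 (RefSeq), minus strand, 5′ to 3′, with CCAAT or its reverse ATTGG in capitals: *Ccnb1* at chr13:100786529-100786605, *Ccnb2* at chr9:70421555-70421661 and *Cdc20* at chr4:118437344-118437416.
Ccnb1: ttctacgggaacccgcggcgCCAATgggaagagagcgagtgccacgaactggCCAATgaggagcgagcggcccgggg
Ccnb2: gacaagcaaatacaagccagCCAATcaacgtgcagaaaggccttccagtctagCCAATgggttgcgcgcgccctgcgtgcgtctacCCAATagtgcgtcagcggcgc
Cdc20: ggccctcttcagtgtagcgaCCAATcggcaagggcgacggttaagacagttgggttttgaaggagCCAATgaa
CCAAT was searched on both strands, and it was held by 18 of 20 promoters of 19 cell cycle genes against 37.4% of all promoters. By gene, 17 of the 19 held it.

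Markers of granulocytes, B cells and dendritic cells were mostly lower at 72 h than at 4 h, whereas those of stromal cells, T and natural killer cells and osteoclasts were not, and the part of these cells in the results above was not tested. The summed FPKM of 12 neutrophil and precursor genes was 25572, 8272 and 22845 in control, 23684, 7484 and 15152 at LPS 4 h and 923, 971 and 2654 at LPS 72 h, and under RANKL it was 22835, 7825 and 14981 at 4 h and 8139, 4002 and 2033 at 72 h. Of the 12, 11 were lower and 1, *Mmp8*, was higher at LPS 72 h than at LPS 4 h. Over all genes 14.3% were lower and 45.0% higher, which are also the shares to set beside the other marker counts here. *Ngp*, a neutrophil granule gene, stood at 2912, 902 and 2218 at 4 h and 3.36, 2.84 and 117 at 72 h (-7.41, SE 1.11, adjusted p = 5.47e-05). *Elane*, encoding neutrophil elastase, stood at 292, 253 and 124 and 0.97, 0.369 and 10.1, *Mpo*, encoding myeloperoxidase, at 144, 183 and 76.2 and 0.387, 0.343 and 8.32, and *Camp*, encoding a cathelicidin, at 956, 219.5 and 609 and 1.1, 1.38 and 23.9. The third 72 h sample was the highest of its group in each of these 4 genes and lay below every 4 h sample. *Prg2*, an eosinophil granule gene, held 1437 fragments over the LPS 4 h samples and 3 over the LPS 72 h samples, a ratio of 465 after scaling to depth with a 95% counting interval of 159 to 2256. Basophil genes summed to 54.6, 21.2 and 12.8 and 0.65, 1.11 and 6.25, with *Prss34* at 35.6, 13.3 and 8.74 and 0, 0 and 0.236. *Fcer1a* of basophils had no fragment at LPS 72 h against 35 at 4 h, at least 11.3-fold lower, and *Siglech* of plasmacytoid dendritic cells had none against 528, at least 171-fold lower. Of 6 B cell genes 5 were lower, and of 5 dendritic cell genes 3 were lower, or 1 without the third LPS 72 h sample. Genes of stromal cells summed to 432, 289 and 231 at 4 h and 178, 204 and 702 at 72 h, the third 72 h sample being the highest, with 2 of 18 lower and 1 higher, or 6 and none without that sample. Of 10 osteoclast genes 3 were higher and 1 lower, with sums of 245, 168 and 179 at 4 h and 362, 261 and 312 at 72 h, without overlap. Genes of T and natural killer cells, of which 1 of 6 was higher and none lower, summed to 14.2, 6.56 and 3.38 and 5.54, 5.86 and 13.

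**Figure D5:**
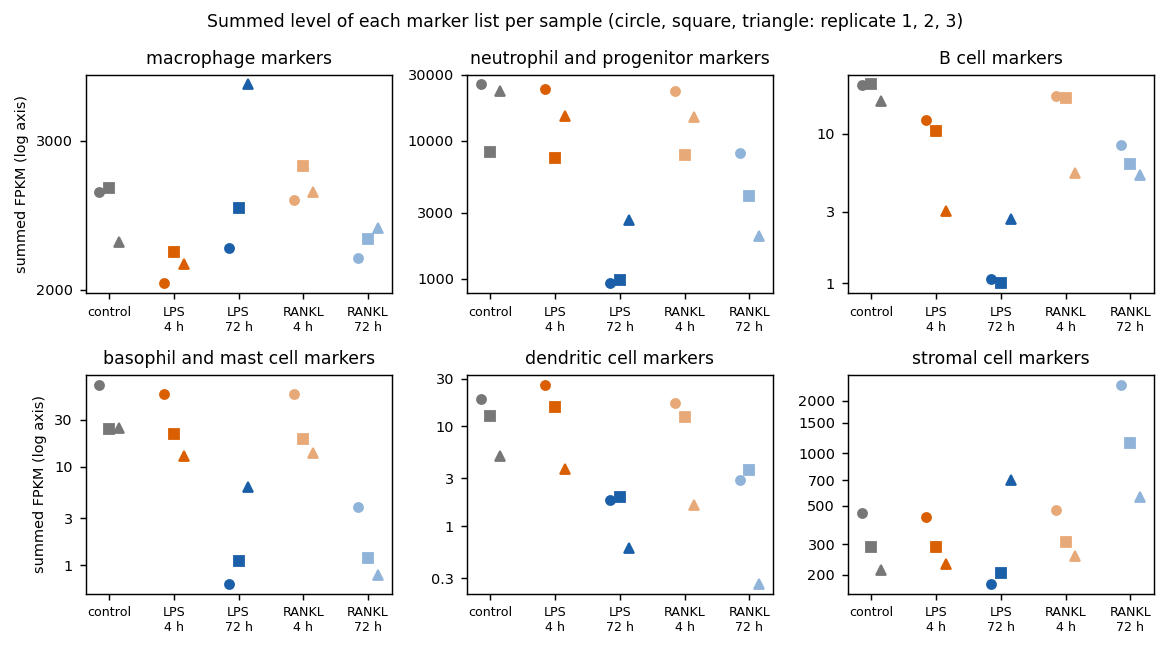
Summed FPKM (log axis) of marker genes of macrophages and of other cells in each of the 15 samples, by group. Macrophage markers sum to 2036 to 3496 in every sample, whereas the neutrophil sum is 23684, 7484 and 15152 in the LPS 4 h samples and 923, 971 and 2654 in the LPS 72 h samples.

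The largest rises between the times were those of granzyme genes, serine proteases of cytotoxic granules. Granzyme genes rose under RANKL too. Of 9, taken by symbol after their values were seen, 5 were higher at RANKL 72 h than at RANKL 4 h (20.1% over all genes), with a median of 1.62 (log2). Only 1 of the 9 was called for a larger rise under LPS than under RANKL (36.3% over all genes). *Gzmf* stood at 0.102, 0.0516 and 0.385 FPKM in control, 0.161, 0 and 0.518 at 4 h and 1.24, 65.9 and 83.4 at 72 h (6.27, SE 1.23, adjusted p = 0.000495). *Gzmg* stood at 0.409, 0 and 0.989, 0.214, 0 and 0.829 and 1.03, 119 and 86.4, and *Gzmd* at 6.48, 1.85 and 4.2, 6.63, 1.31 and 3.23 and 14.8, 107 and 101. The first 72 h sample held far less of all 3 than the other two, and all 72 h values lay above all 4 h values. *Prf1*, encoding perforin, stood at 0.513, 0.249 and 0.53, 0.438, 0.399 and 0.365 and 1.4, 9.57 and 13.02, with its low value in the same sample. The genes of these granzymes lie side by side on chromosome 14 and are closely alike, so the division of fragments between them is uncertain, and with a voom fit of the recovered fragments *Gzmf* (7.10) and *Gzmg* (6.98) were not called. The defining T cell genes *Cd3d*, *Cd3e* and *Cd3g* each stayed at or below 1.05 FPKM in every LPS sample. Of the natural killer cell genes, *Nkg7* stood at 9.65, 5.1 and 2.26 at 4 h and 2.83, 3.64 and 6.47 at 72 h, *Ncr1* at 1.71, 0.525 and 0.5 and 0.529, 0.193 and 1.69 and *Klrd1* at 0.97, 0.259 and 0.262 and 1.08, 1.004 and 3.19. *Klrd1* was called higher between the times (1.65), a call lost without the third LPS 72 h sample (1.14), without the second or the third LPS 4 h sample, when centred, with adjusted p, with voom and with a pseudocount of 1 FPKM.

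Whether the same interval moved genes alike under RANKL was tested as the difference of both time differences, which do not share samples. Of 11743 genes 53.2% were called, 4262 higher (36.3%) and 1989 lower (16.9%) under LPS, and 28.3% were called between RANKL 72 h and RANKL 4 h, 20.1% higher and 8.24% lower. The median gene was 0.33 (log2) higher in this difference, so the excess of genes higher under LPS was not separated from the shift of scale. With centred samples 5606 genes were called, against 6251 as deposited, and their split by direction is not given here. Genes with large differences in each direction, by the rule, included these. *Cebpa*, encoding a myeloid transcription factor, stood at 8.84, 9.28 and 14.4 FPKM at LPS 4 h and 119, 123 and 64.9 at LPS 72 h, and at 149.7, 173 and 181 and 46.5, 31.5 and 21.1 under RANKL, a difference of 5.62 (log2, SE 0.40, adjusted p = 5.04e-07). It rose under LPS and fell under RANKL, without overlap of the times in either. *Steap4*, a metalloreductase gene, fell under LPS from 2.76, 4.64 and 3.66 to 0, 0.0618 and 0.0797 and rose under RANKL from 0.0463, 0.031 and 0.0157 to 5.86, 2.65 and 8.06 (-9.99, SE 0.52, adjusted p = 3.30e-08). *Dcstamp*, needed for the fusion of osteoclasts, stood at 0.522, 0.159 and 0.0918 and 0.137, 0.118 and 0.146 under LPS and at 0.307, 0.118 and 0.168 and 32.1, 22.4 and 70.9 under RANKL (-7.44). Of the genes that fell under LPS, *Cxcl10* differed by -8.40 and *Tnfsf15* by -8.08, and their values at RANKL 72 h were 8.91, 46.01 and 25.8 and 1.1, 0.97 and 0.654. Cell cycle genes differed too: *Ccnb1* stood at 14.5, 18.8 and 20.2 at RANKL 4 h and 26.1, 37.6 and 40.7 at RANKL 72 h, and over the list 22 of 24 were lower under LPS by this test.

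The strand used in counting is not given in the sources used here, so values of genes that overlap another gene are uncertain. Among the genes above these include *Il27* with *Apobr*, *Cxcl10* with *Art3*, *Il1b* with *Il1bos*, *Ifit1* with *Ifit1bl1*, *Arg1* with *Gm40616*, *Phospho1* with *Abi3*, *Ptges* with *Gm13400*, *Csf3* with *Gm38985*, *Saa3* with *Gm31882*, *Tpi1* with *Spsb2*, *Slc16a3* with *Csnk1d*, *Ankrd37* with *Ufsp2*, *Polg2* with *Milr1*, *Mpo* with *Gm34064* and *Cdc20* with *Elovl1*.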

How the data were processed

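RNA of 15 samples of mouse BMDMs (5 groups of 3) was sequenced by the authors from total RNA with a SMARTer kit. The values are FPKM as deposited by the authors, per the submitters' processing notes made with StringTie on GRCm38.p4 (mm10), and the methods of the study name Ballgown for the FPKM values. The aligner and the strand setting are not given in the sources used here. M-CSF was given for 3 days before the stimulus in the labels and for 4 days in the methods. Of the table, 20089 genes were used. The entries after *Tti2* in its alphabetical order were not analysed here.

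Samples were grouped by their titles. Genes whose mean over all samples reached 0.1 FPKM (11743) were fitted on log2(FPKM + 0.1) with limma 3.58.1 (lmFit and eBayes with trend, R 4.3.3), with all 5 groups in 1 fit. Calls follow the study's thresholds (fold above 1.5 or under 0.66, unadjusted p under 0.05). The study used edgeR, which was not used here as the main test because the deposited values are not counts. An exact permutation test of 3 samples against 3 cannot go below p = 0.1. The values were whole multiples of 1 fragment for 14485 genes (100% of values whole within 0.01), which gave the depth (18306184 to 20330207 fragments a sample) and allowed a limma voom fit of the recovered fragments as an alternative. Counting intervals (95%, exact) and floors cover counting error only.

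Genes are named from fixed lists, as the 10 largest rises and falls with adjusted p under 0.05, groups that did not overlap and a mean of 1 FPKM or more, as the 5 largest of each class of early and late change, and as the 5 largest differences between LPS and RANKL in each direction. The members and lists were chosen with earlier results of these data known. The genes *Mx1*, *Mx2* and *Cxcl11* of the lists were not analysed here, and some genes that the rule names are not reported here.

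Replicate numbers paired control with LPS 4 h (correlation of deviations 0.62, 0.62 and 0.44 over 9486 genes) but not LPS 4 h with LPS 72 h (-0.07, 0.07 and -0.15). Alternatives were other pseudocounts (0.01 and 1), filters, scalings, groups in the fit, a replicate block, adjusted p, a fold of 2, voom and each replicate left out. Leaving out the third LPS 72 h sample with centring was added after the data were seen. The fit was tested on simulated data. Promoters are from RefSeq (GRCm38.p6). Figures were drawn with matplotlib 3.10.9.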

Additional observations from a re-analysis of the deposited data

Results flagged for a closer look

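The time difference under LPS differed from that under RANKL, tested as the difference of both in the limma fit, for 6251 genes by fold and unadjusted p. By the rule for named genes, *Rhov* (5.96, adjusted p = 2.15e-05), *Cebpa* (5.62, adjusted p = 5.04e-07), *Trib3* (4.95, adjusted p = 3.45e-05) and *Lhfpl2* (4.85, adjusted p = 2.35e-06) moved up more under LPS (log2). In the other direction stood *Steap4* (-9.99, adjusted p = 3.30e-08), *Cxcl10* (-8.40, adjusted p = 6.29e-05), *Tnfsf15* (-8.08, adjusted p = 3.30e-08), *Mt3* (-8.00, adjusted p = 2.45e-05) and *Dcstamp* (-7.44, adjusted p = 9.91e-06). *Rhov*, a small GTPase gene, stood at 2.4, 0.879 and 3.53 FPKM at LPS 4 h and 23.7, 24.9 and 8.27 at LPS 72 h, and at 12.7, 8.65 and 18.6 and 1.67, 1.28 and 1.9 under RANKL. *Trib3*, a pseudokinase gene of the integrated stress response, stood at 1.35, 0.727 and 2.25 and 9.73, 18.4 and 4.52 under LPS and at 10.6, 8.35 and 13.2 and 2.69, 1.997 and 1.98 under RANKL. Both rose under LPS and fell under RANKL without overlap. *Mt3*, a metallothionein gene, stood at 0.997, 0.346 and 0.35 and 0.262, 0.632 and 0.279 under LPS and at 0.631, 0.181 and 0.0918 and 57.2, 40.2 and 129.9 under RANKL, so that its difference came from the RANKL samples. No explanation was tested.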

How the results depend on the processing

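The counts of genes between the times and in each class stayed within 1.5 times the values reported under other filters, another choice of groups, no trend, equal sums, adjusted p, voom (5326 higher and 1641 lower) and each single replicate left out, and also with a pseudocount of 0.01. Leaving out 1 replicate gave 4988 to 5457 genes higher and 1534 to 1803 lower, with the extremes set by the first and the third LPS 72 h sample. With the replicate block, 5354 genes were higher and 1750 lower, and the block, in which same-numbered LPS 4 h and LPS 72 h samples share only a number, moved no count by over 1.5 times. With it *Ifit1* (-1.36) and *Il27* (-0.74) were called below control and *Cd274* (-0.83) lower at 72 h than at 4 h, and no other call among the differences of named genes counted below changed. The deviations of these LPS samples correlated at -0.07, 0.07 and -0.15 over 9486 genes, and not every sample correlated best with its own number (0.16 between the first LPS 4 h and the third LPS 72 h sample). With a pseudocount of 1 FPKM, 334 falls reversed. With centred samples 2293 genes were higher and 3361 lower, 1074 rises resolved and 257 reversed, 886 falls resolved, 415 persisted and 181 reversed, and 1218 genes fell only at 72 h. With a fold of 2, 3335 genes were higher, 207 rises persisted and 42 reversed, 1647 falls resolved, 428 persisted and 108 reversed, and 311 genes rose only at 72 h, since fewer genes pass a larger fold. Without the third LPS 72 h sample and with centred samples, an alternative chosen after seeing the data, 2356 genes were higher and 3603 lower, 1043 rises resolved and 305 reversed, 786 falls resolved, 495 persisted and 249 reversed, and 1407 genes fell only at 72 h. The cause of the difference that centring makes was not tested.

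Over 142 differences of named genes and their alternatives, 3101 kept direction and call, 62 lost the call, 42 gained it and 28 changed sign. All of the last were among differences not called in the full data as deposited. These were, when centred, *Ccnd1* -0.38, *Irak3* -0.38, *Lrrc14b* -0.12, *Ly96* -0.56, *Pi16* -0.63 and *Ptges* -0.50 (log2). Without the third LPS 72 h sample and centred they were *Ccnd1* -1.03, *Irak3* -0.65, *Ly96* -0.35, *Pi16* -1.44 and *Ptges* -0.32, and there *Irak3* and *Pi16* were called lower. With equal sums *Cx3cr1* was 0.012, and *Pi16* was -0.063 with a pseudocount of 0.01 and -0.052 with voom. With 1 replicate left out the ranges were *Ccl5* -0.34 to 0.22, *Ccnd1* -0.32 to 1.03, *Cx3cr1* -0.22 to 0.18, *Cxcl3* -0.70 to 0.27, *Cxcr2* -1.68 to 0.64, *Dcstamp* -0.78 to 0.068, *Gpr160* -0.65 to 0.19, *Ly96* -0.054 to 0.36, *Pi16* -0.72 to 0.73 and *Ptges* -0.22 to 0.40.

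Differences of genes near or under 0.1 FPKM are reduced by the pseudocount. No measure of total RNA per cell was used here, so a shift of the median gene cannot be told apart from a difference in scaling between the groups.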

Other observations

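Genes of cytosolic and of mitochondrial ribosomes moved apart between the times. These groups were taken by symbol after their values were seen, so their counts are descriptions. Of 80 cytosolic ribosomal protein genes, 42 were lower and 1 higher at LPS 72 h than at LPS 4 h (median -0.61, log2, against 0.52 over all genes), and 75 were lower when centred. Against control 62 were lower at 72 h (16.1% over all genes) and 1 at 4 h (41.0% over all genes). Their summed FPKM was 32359, 35987 and 33731 in control, 31144, 29831 and 26343 at LPS 4 h and 16463, 19181 and 25303 at LPS 72 h, the third 72 h sample being the highest, and without it 64 were lower than at 4 h. Under RANKL 7 were higher and none lower at 72 h than at 4 h (20.1% and 8.24% over all genes), and the sums at RANKL 72 h were 41514, 44019 and 47875. *Rpl10a* (-1.17) and *Rps6* (-1.06) had the largest falls under LPS.

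Of 77 mitochondrial ribosomal protein genes, 53 were higher and 1 lower at LPS 72 h than at LPS 4 h (median 0.78), 11 and 4 when centred, and their sums were 1386, 1289 and 1189 at 4 h and 2424, 2213 and 1911 at 72 h without overlap. Over all genes 45.0% were higher. Against control 38 were lower and none higher at 4 h (41.0% and 8.75% over all genes), or 4 lower and 2 higher when centred. At 72 h 6 were higher and 2 lower than control (14.9% and 16.1% over all genes). The group median against control was -0.59 at 4 h and 0.16 at 72 h. Over all genes these medians were -0.52 and 0.08, so the return towards control was not particular to this group. *Mrps34* (1.75) had the largest rise between the times. Of 45 genes of respiratory complex I subunits and assembly factors, 23 were higher and 1 lower (median 0.59), and 1 and 3 when centred. The share higher and the median lay near the 45.0% and 0.52 over all genes. Of 39 genes with symbols of proteasome subunits, a pattern that also took in *Psmc3ip*, 4 were higher and 3 lower (median 0.02), and 0 and 22 when centred. Over all genes 45.0% were higher and 14.3% lower. Of 9 granzyme genes, 6 were higher than at 4 h (45.0% over all genes) and 6 higher than in control (14.9% over all genes). Their sums were 73.9, 22.3 and 32.9 FPKM at LPS 4 h, 55.9, 416 and 526 at LPS 72 h and 191, 82.0 and 96.5 at RANKL 72 h.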
